A study of Mus musculus with 8 samples.

Results

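Chemokines are small secreted or membrane-anchored proteins that attract leukocytes, and stellate cells and the fibroblasts derived from them are known as a source of several of them in the pancreas. The 10 chemokine ligands described here were Cxcl1, Cxcl2, Cxcl3, Cxcl5, Cxcl12, Cxcl10, Cxcl16, Cx3cl1, Ccl2 and Ccl7. They were taken by their symbols from the 12160 genes counted in mouse pancreatic stellate cells (PSCs), fibroblast-like cells that reside in the pancreas, and all 10 had a row in the table. RNA was sequenced in 8 libraries, each from a Matrigel dome of 1 immortalized PSC line, so the replicates were domes of the same line and p-values measure the spread between domes.

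The sample records give 20000 cells seeded per dome, and the study's methods give another number for its 3D cultures. All PSCs were first given 4 days of growth medium, which is DMEM with serum. In 3 domes the medium was then replaced for 4 days by conditioned medium of KPC-shBrca2 organoids (shBrca2-CM), and in 3 domes by conditioned medium of KPC-shControl organoids (shControl-CM). KPC organoids are mouse pancreatic cancer cells in 3D culture. They carried a lentiviral short hairpin RNA, either against Brca2, a DNA repair gene, or non-targeting. The number of separate collections of each medium is not stated. P-values between the media do not measure the spread between hairpins or between organoid lines. The remaining 2 domes are called control medium here, because the sources conflict. Their titles and the study's results name DMEM growth medium, and its methods for differential expression name growth medium. Their recorded treatment and the study's methods for 3D culture name medium conditioned by the PSCs themselves. The hairpin acted in the organoids and not in the PSCs, so Brca2 in these libraries does not check the labels. Both comparisons with control medium used the same 2 control libraries.

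Counts per library summed to 655996 to 1095534 in the shBrca2-CM group, 1093609 to 1624392 in the shControl-CM group, and 4623846 and 5476988 in the control group. Levels are given as CPM (counts scaled to library size, TMM-normalized over all 8 libraries), with the mean ± SD. A floor of 3 counts was worth 2.66 to 4.35 CPM with shBrca2-CM, 1.90 to 2.91 CPM with shControl-CM, and 0.525 and 0.643 CPM with control medium. Floors and counting intervals cover counting error only. Of 14 mesenchymal genes checked against the label, all 14 were measured, with summed levels of 3310 to 3480 CPM (shBrca2-CM), 4290 to 4840 CPM (shControl-CM) and 5730 to 6740 CPM (control medium). Within this sum the genes moved in both directions, with 4 higher and 6 lower with shControl-CM, 6 and 6 with shBrca2-CM (both against control medium) and 1 and 3 between the conditioned media. Vim and Acta2 fell with shControl-CM (log2 fold changes -3.38 and -4.12) while Dcn and Pdpn rose (4.5 and 3.12), and between the media Dcn, Pdpn and Lum were lower with shBrca2-CM (-0.93, -1.07 and -1.59) and Pdgfra higher (0.85). Of 9 leukocyte markers 4 had a row (Cd68, Lyz2, Csf1r, S100a8), and the pan-leukocyte marker Ptprc was not among them. Their summed level was 13.1 to 26.6 CPM with shBrca2-CM, 29.2 to 45.8 CPM with shControl-CM, and 9.64 to 12.1 CPM with control medium. S100a8 was at 0 counts in every shBrca2-CM library. Of 10 epithelial markers 4 were measured (76.9 to 125 CPM, 72.6 to 83.3 CPM, and 51.0 to 56.5 CPM, in the same order). Krt19 fell with shControl-CM against control medium (-3.18) while Krt18 and Muc1 rose (2.43 and 1.97). With shBrca2-CM Krt19 fell (-1.03) while Krt18, Muc1 and Sox9 rose (2.66, 2.08 and 0.77). Between the media Krt19 was higher with shBrca2-CM (2.12), and the other 3 did not pass the test described below. No shControl-CM library held more than 4 counts of Krt19. Of 6 endothelial markers 3 were measured, at most 6.82 CPM in all. Kdr was at 0 in all shBrca2-CM libraries and Tek in all shControl-CM libraries. In bulk RNA, fewer cells expressing a gene and less RNA per cell cannot be told apart.

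Chemokine ligands are grouped by the spacing of their first cysteines and by the receptors they engage. Cxcl1, Cxcl2, Cxcl3 and Cxcl5 carry the ELR motif (glutamate, leucine, arginine), bind CXCR2 and recruit neutrophils. Cxcl12 is the homeostatic ligand of CXCR4 and is also bound by the scavenging receptor ACKR3. Cxcl10 is induced by interferon and draws CXCR3-bearing T cells, while Ccl2 and Ccl7 draw monocytes through CCR2. Cxcl16 and Cx3cl1 are made as membrane-anchored proteins and are released by the sheddases ADAM10 and ADAM17. Transcription of many inflammatory chemokine genes is driven by NF-kB, and their mRNAs are short-lived.

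In the mouse genome (build GRCm38.p6, RefSeq annotation) the 4 ELR ligand genes lie within 147 kb of chromosome 5, at 90759298 to 90761625 (Cxcl5), 90786101 to 90788093 (Cxcl3), 90891245 to 90893121 (Cxcl1) and 90903899 to 90905938 (Cxcl2). Cxcl10 lies farther along the same chromosome, at 92346638 to 92348889. Ccl2 (82035577 to 82037452) and Ccl7 (82045712 to 82047525) are neighbours on chromosome 11, spanning 11.9 kb, and Cxcl16 is elsewhere on it, at 70454389 to 70459984. Cxcl12 is on chromosome 6 at 117168535 to 117181368 and Cx3cl1 on chromosome 8 at 94772180 to 94782427. Within each cluster the genes arose by duplication and have related sequences, so reads of Cxcl1, Cxcl2 and Cxcl3, or of Ccl2 and Ccl7, could in part be assigned to a neighbour or dropped as ambiguous.

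The promoters of the 3 ELR ligands that differed between the conditioned media and of Cxcl12, which differed in the opposite direction, are shown because these members moved together or apart. Each sequence is the RefSeq window from 250 bases before the annotated gene start to 50 bases after, on the gene's strand, from chr5:90890995-90891294 (Cxcl1), chr5:90903649-90903948 (Cxcl2), chr5:90785851-90786150 (Cxcl3) and chr6:117168285-117168584 (Cxcl12), all on the plus strand. Capitals mark matches on either strand to GGNNNTTCC, the letters of an NF-kB-like site, and to TATAAA, the letters of a TATA box. No match to TGANTCA, an AP-1-like site, was found in these 4 windows.
Cxcl1: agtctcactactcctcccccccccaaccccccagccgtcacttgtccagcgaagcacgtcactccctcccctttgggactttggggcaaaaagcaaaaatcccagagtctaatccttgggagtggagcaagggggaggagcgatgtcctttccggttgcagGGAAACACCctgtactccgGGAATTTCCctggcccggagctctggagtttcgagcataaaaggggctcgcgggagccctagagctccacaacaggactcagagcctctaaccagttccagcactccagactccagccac
Cxcl2: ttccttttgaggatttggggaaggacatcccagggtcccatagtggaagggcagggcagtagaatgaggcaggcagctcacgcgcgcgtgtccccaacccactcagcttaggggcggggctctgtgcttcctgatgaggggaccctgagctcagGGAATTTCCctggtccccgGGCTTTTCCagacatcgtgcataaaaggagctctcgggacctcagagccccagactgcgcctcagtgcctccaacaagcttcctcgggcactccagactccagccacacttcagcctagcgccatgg
Cxcl3: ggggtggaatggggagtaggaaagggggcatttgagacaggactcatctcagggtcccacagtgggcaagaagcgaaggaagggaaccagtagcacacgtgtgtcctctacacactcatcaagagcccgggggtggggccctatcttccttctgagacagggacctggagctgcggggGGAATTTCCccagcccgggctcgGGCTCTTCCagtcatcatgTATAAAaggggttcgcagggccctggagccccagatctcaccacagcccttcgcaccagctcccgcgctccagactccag
Cxcl12: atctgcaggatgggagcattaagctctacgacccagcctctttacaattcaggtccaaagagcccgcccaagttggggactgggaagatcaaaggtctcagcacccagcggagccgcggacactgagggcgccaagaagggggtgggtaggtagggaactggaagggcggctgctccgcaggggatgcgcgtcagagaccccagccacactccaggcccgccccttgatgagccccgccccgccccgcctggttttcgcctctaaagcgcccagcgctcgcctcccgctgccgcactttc

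Cxcl1, Cxcl2 and Cxcl3 each held 2 matches to GGNNNTTCC in the last 100 bases before the start. In each of the 3 promoters 1 match had the letters GGAATTTCC, which read as a match on both strands, starting 70 bases (Cxcl1), 96 bases (Cxcl2) and 72 bases (Cxcl3) before the start. The Cxcl12 window held none of the 3 motifs. Of 32851 mouse promoters of the same length, 18.5% held GGNNNTTCC, 7.81% TGANTCA and 13.6% TATAAA. Of the 10 members, 6 had a promoter in the table, which also included Cxcl10 (chr5:92348840-92349139, minus strand) with 2 matches to GGNNNTTCC and 1 to TGANTCA. It also included Cx3cl1 (chr8:94771930-94772229, plus strand) with 1 match to GGNNNTTCC and 1 to TATAAA. The TATAAA match began 6 bases before the start in Cx3cl1 and 30 bases before it in Cxcl3. Cxcl5, Cxcl16, Ccl2 and Ccl7 had no entry. A match describes the letters and is not a measured binding site.

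**Figure D1:**
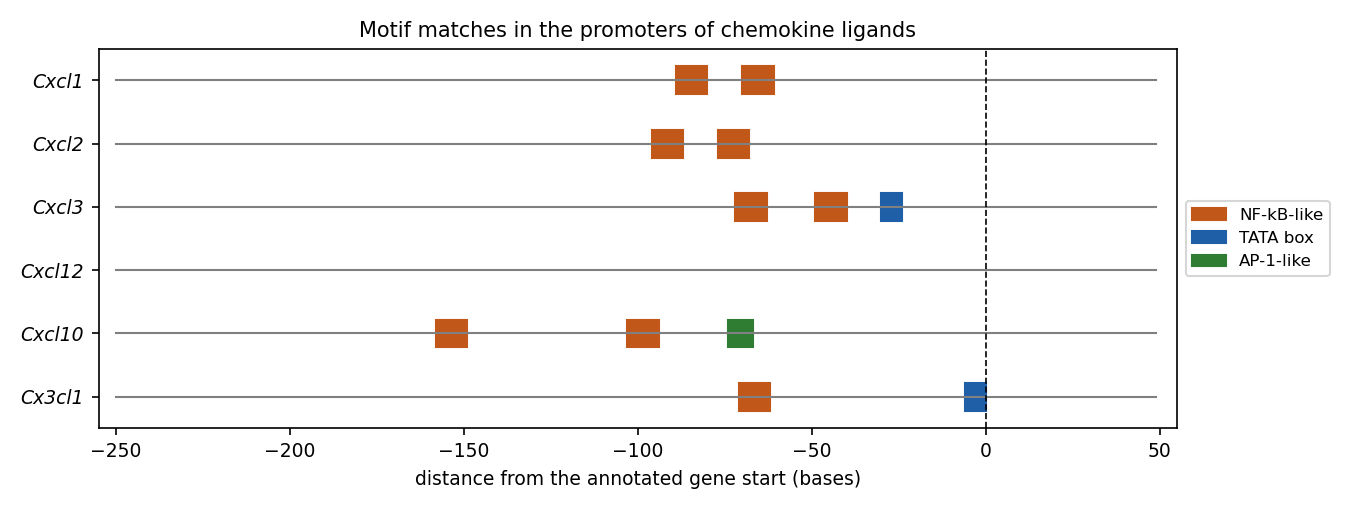
Matches to 3 motifs along the promoters of 6 chemokine ligands, with the distance from the annotated gene start in bases on the horizontal axis and 1 line per gene. Orange boxes are matches to the NF-kB-like letters, blue boxes matches to TATAAA (labelled TATA box) and the green box an AP-1-like match. Cxcl1, Cxcl2 and Cxcl3 each show 2 orange boxes within 100 bases of the start and Cxcl12 shows no box.

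Differential expression (DE) was called by edgeR's quasi-likelihood test at a Benjamini-Hochberg adjusted p under 0.1, a log2 fold change beyond 0.5 in either direction and normalized counts of more than 5 on average. Between shBrca2-CM and shControl-CM all 10 members were tested and 4 were DE. One member, Cxcl12, was higher with shBrca2-CM, where 1.58% of all 11035 genes tested were DE and higher, and 3 members, Cxcl1, Cxcl2 and Cxcl3, were lower, where 1.55% of all genes were DE and lower. Cxcl2 and Cxcl3 passed the count thresholds through the shControl-CM libraries, since no shBrca2-CM library held more than 3 and 1 counts of them. The count of lower members therefore describes these data and was not tested against the share. With shControl-CM against control medium all 10 members were DE, 6 higher (18.2% of 12086 genes) and 4 lower (18.9%). With shBrca2-CM against control medium 9 members were tested and 7 were DE, 4 higher (18.6% of 12049 genes) and 3 lower (19.2%). The median log2 fold changes of the tested members were -0.12, 1.44 and 0.81 in these comparisons, and those of all genes tested were 0.03, -0.10 and -0.05.

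**Figure D2:**
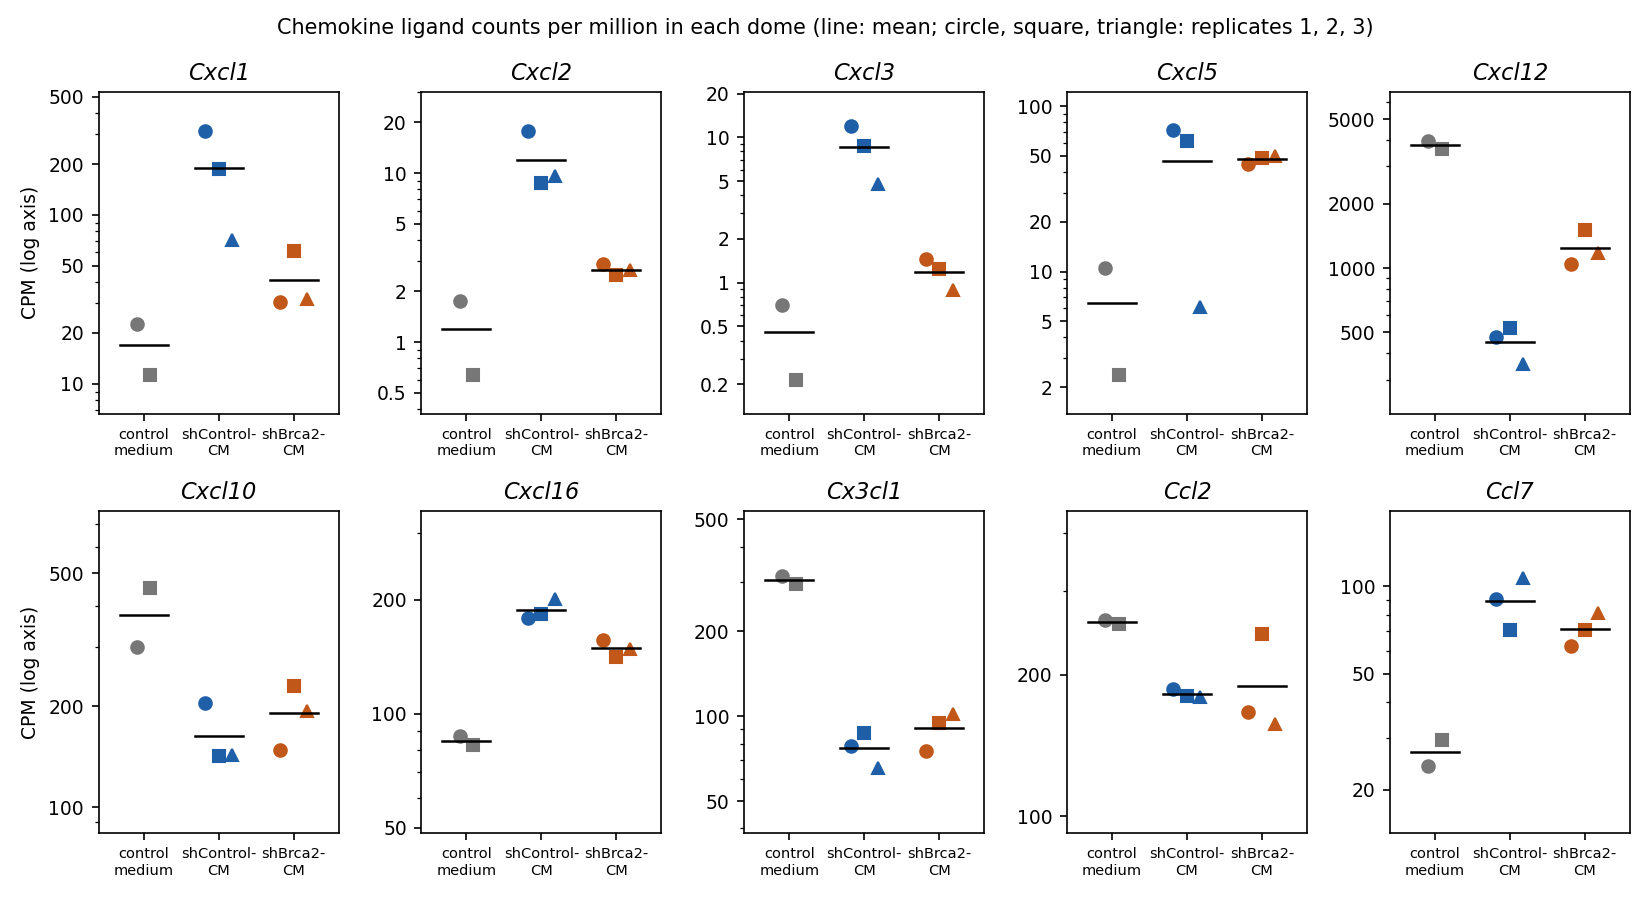
Levels of the 10 chemokine ligands in CPM on log axes, 1 panel per gene, with control medium in grey (2 domes), shControl-CM in blue (3 domes) and shBrca2-CM in orange (3 domes). Points are single domes and lines are group means; Cxcl1, Cxcl2 and Cxcl3 were highest in the shControl-CM domes, while Cxcl12 was at 3610 to 3940 CPM in control medium and at 354 to 522 CPM with shControl-CM.

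The ELR ligands Cxcl1, Cxcl2 and Cxcl3 rose with shControl-CM and were several-fold lower with shBrca2-CM, while Cxcl5 rose to about the same mean with both conditioned media. Cxcl1 was at 22.7 and 11.4 CPM in control medium, at 314, 187 and 71.0 CPM with shControl-CM and at 30.5, 60.8 and 31.9 CPM with shBrca2-CM. The 3 groups did not overlap, and the lowest shControl-CM dome, replicate 3, lay close to the highest shBrca2-CM dome, replicate 2. The means were 190.6 ± 121 CPM with shControl-CM (SD, n = 3), 41.1 ± 17.1 CPM with shBrca2-CM (SD, n = 3) and 17.1 ± 8.06 CPM with control medium (SD, n = 2). Cxcl1 was 4.62-fold lower with shBrca2-CM than with shControl-CM (log2 fold change -2.21, standard error, SE, 0.47, 95% interval -3.22 to -1.19, edgeR adjusted p = 0.0286). It rose 11.1-fold with shControl-CM against control medium (log2 fold change 3.47, SE 0.56, edgeR adjusted p = 0.00147) and 2.36-fold with shBrca2-CM (log2 fold change 1.24, SE 0.26, edgeR adjusted p = 8.76e-05). Without control replicate 1 these were 4.08 and 1.83, and without shControl-CM replicate 1 the first was 2.87, all on the log2 scale and called. The order shControl-CM, shBrca2-CM, control medium therefore had a DE difference at each step. The difference between the conditioned media was no longer called when shBrca2-CM replicate 1, 2 or 3 was left out (edgeR adjusted p = 0.198, 0.108 and 0.217), with log2 fold changes of -2.06, -2.59 and -2.02. Without shControl-CM replicate 1, the highest dome, it was called at -1.62.

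Cxcl2 and Cxcl3 were counted rarely, so their differences rest on few reads. The shControl-CM libraries held 28, 9 and 14 counts of Cxcl2, the shBrca2-CM libraries 2, 2 and 3, and the deeper control libraries 10 and 3. This corresponded to 17.8, 8.72 and 9.56 CPM with shControl-CM, 2.90, 2.48 and 2.66 CPM with shBrca2-CM, and 1.75 and 0.643 CPM with control medium. No shBrca2-CM library was above the floor of 3 counts, and every shControl-CM library was above every other library. From the pooled counts, 51 against 7, Cxcl2 was 4.69 times as frequent with shControl-CM as with shBrca2-CM, with a 95% counting interval of 2.12 to 12.2. The edgeR test called it lower with shBrca2-CM (log2 fold change -2.13, SE 0.52, edgeR adjusted p = 0.0627). This call was lost with DESeq2 (adjusted p = 0.166 with the likelihood ratio test and 0.2 with the Wald test) and when any 1 of the shBrca2-CM libraries was left out (edgeR adjusted p = 0.198, 0.264 and 0.242 without replicates 1, 2 and 3). Against control medium Cxcl2 rose with shControl-CM (log2 fold change 3.27, SE 0.54, edgeR adjusted p = 0.00168, 51 against 13 pooled counts), at 4.14 on the log2 scale without control replicate 1 and 3.96 in thinned libraries. Between shBrca2-CM and control medium its log2 fold change was 1.08 (95% interval -0.52 to 2.68, edgeR adjusted p = 0.297), or 1.94 without control replicate 1, and no difference was detectable at this depth.

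Counts of Cxcl3 were 19, 9 and 7 in the shControl-CM libraries, 1 in each shBrca2-CM library, and 4 and 1 in the control libraries. The levels were 12.05, 8.72 and 4.78 CPM with shControl-CM, 1.45, 1.24 and 0.887 CPM with shBrca2-CM, and 0.700 and 0.214 CPM with control medium. All 3 shControl-CM domes were above all other domes, with replicate 3 again the lowest of them. The pooled counts of 35 against 3 gave a ratio of 7.51 between shControl-CM and shBrca2-CM (95% counting interval 2.37 to 38.2). The fitted log2 fold change was -2.76 (SE 0.68, edgeR adjusted p = 0.0642), at a mean normalized count of 5.18, just above the threshold of 5. The call was lost in each of the 6 fits that left out 1 library, with an edgeR adjusted p of 0.197, 0.258 and 0.274 without shBrca2-CM replicates 1, 2 and 3 and 0.168 without shControl-CM replicate 2. Without shControl-CM replicates 1 and 3 the edgeR adjusted p was 0.0731 and 0.00787 and the mean count fell to the threshold or under it. In libraries thinned to the smallest total the call was also lost (log2 fold change -2.38, edgeR adjusted p = 0.13). Against control medium Cxcl3 rose with shControl-CM (log2 fold change 4.04, SE 0.66, edgeR adjusted p = 0.00162), with pooled counts of 35 against 5, but in thinned libraries the mean count did not pass the threshold. Without control replicate 1 it was 4.99 on the log2 scale. With shBrca2-CM it was not tested against control medium, since these 5 libraries held under 10 counts of it (ratio 2.38, 95% counting interval 0.369 to 12.2).

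Cxcl5, at the far end of the cluster from Cxcl2, had another pattern. It was at 10.5 and 2.36 CPM in control medium, at 71.6, 62.0 and 6.15 CPM with shControl-CM, and at 45.0, 48.4 and 49.7 CPM with shBrca2-CM. The shBrca2-CM domes lay within 5 CPM of each other, whereas shControl-CM replicate 3 lay at the level of the control domes, far below its 2 companions. Between the conditioned media the log2 fold change was 0.07 (SE 0.54, 95% interval -1.12 to 1.25, edgeR adjusted p = 0.979), and without shControl-CM replicate 3 it was -0.48 (edgeR adjusted p = 0.264). Cxcl5 rose with shBrca2-CM against control medium (7.14-fold, log2 fold change 2.84, SE 0.30, edgeR adjusted p = 5.49e-12), and the 2 groups did not overlap. With shControl-CM against control medium it also passed the test (7.01-fold, log2 fold change 2.81, SE 0.81, edgeR adjusted p = 0.0247), but the groups overlapped. That call was lost without shControl-CM replicate 2 (edgeR adjusted p = 0.105), without control replicate 2 (0.224) and with DESeq2's likelihood ratio test (0.139). Both fold changes of Cxcl5 depended on which control library was kept: without control replicate 1 they were 4.31 with shBrca2-CM and 4.28 with shControl-CM on the log2 scale, and without control replicate 2 they were 2.20 and 2.15. In each of the 4 ELR ligands control replicate 1 was above control replicate 2. The summed leukocyte markers were also highest with shControl-CM, and their part in the levels of these ligands was not tested.

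**Figure D3:**
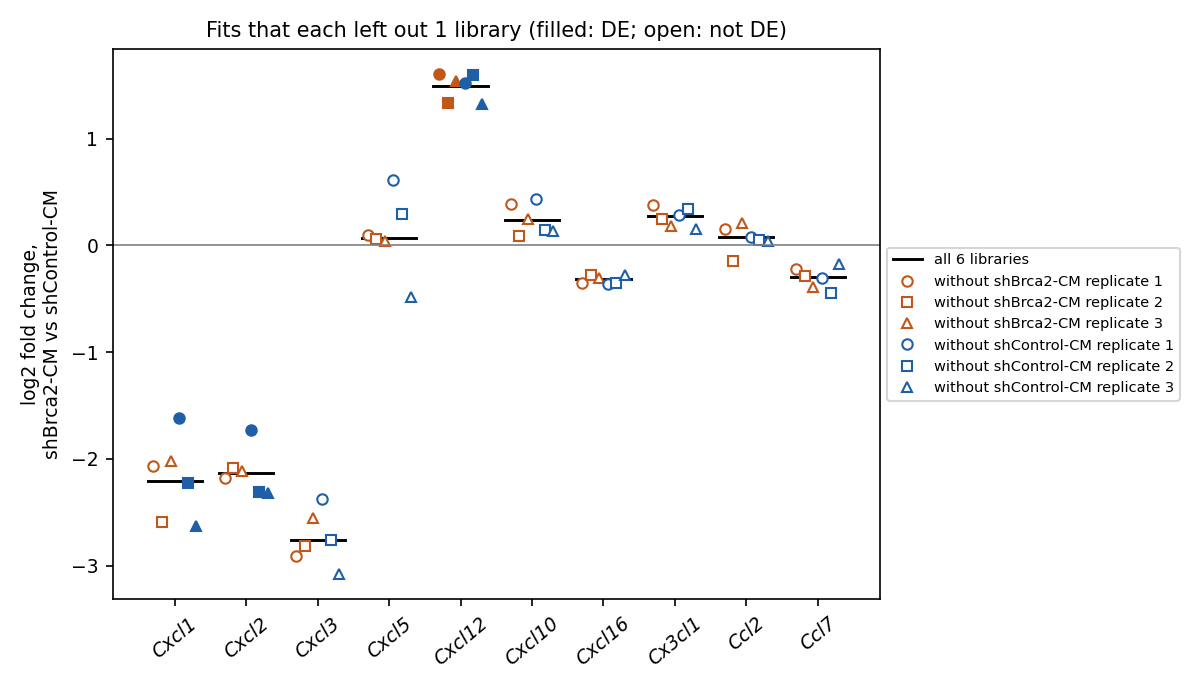
Log2 fold changes of the 10 chemokine ligands between shBrca2-CM and shControl-CM on the vertical axis. Black lines are fits on all 6 libraries and points are fits that left out the library given by colour and shape, filled where the gene was DE; Cxcl12 was filled in all 6 fits, Cxcl1 and Cxcl2 in the 3 fits that left out a shControl-CM library, and Cxcl3 in none.

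Cxcl12 changed in the opposite direction to Cxcl1, Cxcl2 and Cxcl3 in every comparison that called them: it was highest in control medium, lowest with shControl-CM and between with shBrca2-CM. It was at 3942 and 3608 CPM in control medium, at 475.5, 522 and 353.8 CPM with shControl-CM and at 1043, 1514 and 1181 CPM with shBrca2-CM. The 3 groups did not overlap, and the gaps between them were wider than the spread within any of them. The means were 3775 ± 236 CPM with control medium (SD, n = 2), 1246 ± 242 CPM with shBrca2-CM (SD, n = 3) and 450.4 ± 86.8 CPM with shControl-CM (SD, n = 3). Cxcl12 fell 8.4-fold with shControl-CM against control medium (log2 fold change -3.07, SE 0.19, edgeR adjusted p = 3.84e-06) and 3.02-fold with shBrca2-CM (log2 fold change -1.59, SE 0.13, edgeR adjusted p = 1.68e-15). With shBrca2-CM it was 2.81-fold higher than with shControl-CM (log2 fold change 1.49, SE 0.18, 95% interval 1.11 to 1.88, edgeR adjusted p = 7.29e-04). This was the member with the smallest adjusted p between the conditioned media, and it was called in all 16 alternatives, with log2 fold changes from 1.33 to 1.60.

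Of the 23 chemokine receptors listed, 2 had a row in the table. The CXCL12 receptor Cxcr4 was not among them, nor was the CXCR2 gene, and they were not analysed here. Ackr3, the scavenging receptor that binds and degrades CXCL12, was at 14.2 and 15.4 CPM in control medium, at 67.8, 62.0 and 94.3 CPM with shControl-CM and at 31.9, 17.4 and 46.1 CPM with shBrca2-CM. Its 3 groups did not overlap, and their order was the reverse of that of Cxcl12. Ackr3 rose with shControl-CM (log2 fold change 2.34, SE 0.24, edgeR adjusted p = 1.18e-04) and with shBrca2-CM (log2 fold change 1.16, SE 0.26, edgeR adjusted p = 2.66e-04) against control medium. It was lower with shBrca2-CM than with shControl-CM (log2 fold change -1.17, SE 0.29, edgeR adjusted p = 0.0632). The difference between the conditioned media lost its call without shBrca2-CM replicate 1 (edgeR adjusted p = 0.24), without shBrca2-CM replicate 2 (0.264) and without shControl-CM replicate 2 (0.111). Ccrl2, an atypical receptor, was DE in neither comparison with control medium. Its edgeR adjusted p was 0.217 with shControl-CM, and with shBrca2-CM it was 0.0588 but the mean normalized count, 2.13, was under the threshold. It had too few counts to be tested between the conditioned media.

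**Figure D4:**
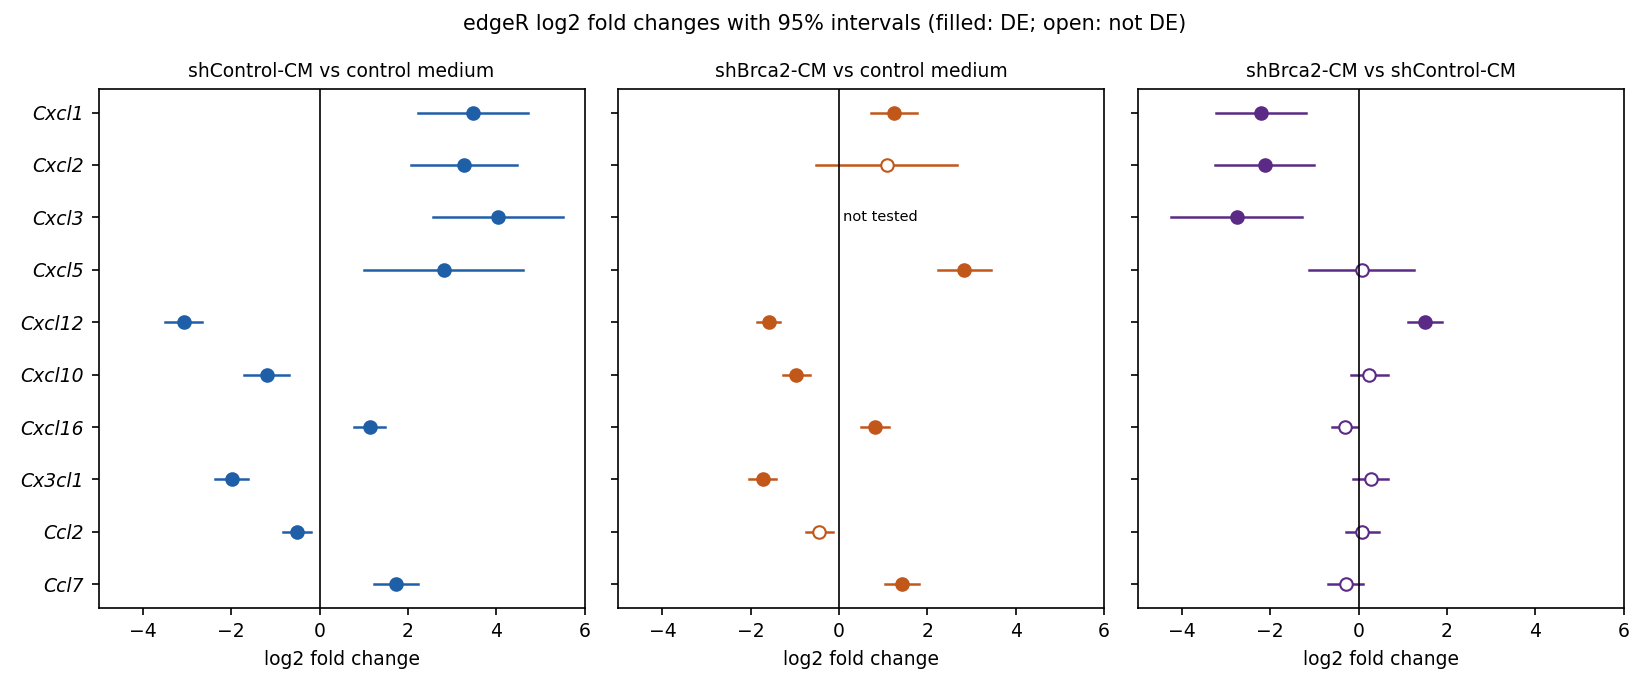
Log2 fold changes of the 10 chemokine ligands (horizontal axis) with their 95% intervals from the edgeR fits, 1 panel per comparison, filled where the gene was DE. All 10 points are filled for shControl-CM against control medium, and for shBrca2-CM against shControl-CM the filled points are Cxcl1, Cxcl2 and Cxcl3 below 0 and Cxcl12 above 0.

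Cxcl10 fell with both conditioned media. It was at 301.5 and 450.9 CPM in control medium, at 204.8, 142.4 and 143.4 CPM with shControl-CM and at 148, 230.7 and 193.4 CPM with shBrca2-CM. Both control domes were above all 6 conditioned medium domes, which overlapped each other. Against control medium Cxcl10 changed by -1.20 on the log2 scale with shControl-CM (SE 0.23, edgeR adjusted p = 0.00326) and -0.97 with shBrca2-CM (SE 0.16, edgeR adjusted p = 9.56e-07). Between the conditioned media it was 0.24 (SE 0.20, 95% interval -0.18 to 0.67, edgeR adjusted p = 0.665), so the neighbouring levels in the order were not separated.

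The interferon list, 15 signalling and response genes that were all tested, had 6 genes higher and 0 lower with shBrca2-CM than with shControl-CM (1.58% and 1.55% of all genes), at a list median of 0.81 against 0.03 for all genes. Ifit3, an interferon-induced antiviral gene, was at 183.2 and 335.5 CPM in control medium, 56.4, 33.9 and 48.5 CPM with shControl-CM and 113, 144 and 114 CPM with shBrca2-CM. Between shBrca2-CM and shControl-CM its log2 fold change was 1.42 (SE 0.20, edgeR adjusted p = 0.0027). Irf7, a transcription factor of the interferon response, was at 291, 291.5 and 395.5 CPM with shControl-CM and at 906.9, 848.3 and 622 CPM with shBrca2-CM (log2 fold change 1.31, SE 0.17, edgeR adjusted p = 0.00144). Cxcl10 itself was not DE between these media, with an interval that reached up to 0.67. Against control medium the list had 2 genes higher and 9 lower with shControl-CM and 4 higher and 8 lower with shBrca2-CM, at list medians of -1.04 and -0.56. Of all genes, 18.2% were higher and 18.9% lower with shControl-CM, and 18.6% and 19.2% with shBrca2-CM. With shControl-CM the decreases included Ifit1 (log2 fold change -3.59), Mx1 (-3.45), Ifit3 (-2.47) and Isg15 (-1.87), where Ifit1 and Mx1 were at -4.44 and -4.51 without shControl-CM replicate 1 and Mx1 at -2.64 without control replicate 2. Isg15 fell from 1770 and 2308 CPM in control medium to 674, 473.5 and 528.7 CPM. The calls of Ifit1 and Rsad2 between the conditioned media (log2 fold changes 1.82 and 1.59, edgeR adjusted p = 0.0513 and 0.08) were lost when any 1 shBrca2-CM library or shControl-CM replicate 2 was left out (edgeR adjusted p from 0.106 to 0.345). Ifit1 was at 2.63 without shControl-CM replicate 1 and 2.76 in thinned libraries. Rsad2 was also not called with either DESeq2 test (adjusted p = 0.119 and 0.12), a replicate block (0.124) or thinned libraries (0.109).

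The membrane-anchored ligands moved apart: Cxcl16 rose with both conditioned media and Cx3cl1 fell with both. Cxcl16, the ligand of CXCR6, was at 87.5 and 82.5 CPM in control medium, at 179.4, 183 and 201.5 CPM with shControl-CM and at 156.7, 141.4 and 148.2 CPM with shBrca2-CM. The groups did not overlap, and both conditioned media were above control medium. Against control medium Cxcl16 rose by 1.14 on the log2 scale with shControl-CM (SE 0.16, edgeR adjusted p = 6.02e-04) and 0.81 with shBrca2-CM (SE 0.16, edgeR adjusted p = 1.96e-05). For Cxcl16 all 3 shBrca2-CM domes were below all shControl-CM domes, by a log2 fold change of -0.31 (SE 0.13, 95% interval -0.60 to -0.03) that did not pass the test (edgeR adjusted p = 0.319).

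Cx3cl1, the ligand of CX3CR1, was at 314.5 and 294.5 CPM in control medium, at 78.6, 87.2 and 65.6 CPM with shControl-CM and at 75.5, 94.3 and 102 CPM with shBrca2-CM. It fell 3.97-fold with shControl-CM (log2 fold change -1.99, SE 0.17, edgeR adjusted p = 3.70e-05) and 3.31-fold with shBrca2-CM (log2 fold change -1.73, SE 0.16, edgeR adjusted p = 3.30e-14). The 2 conditioned media overlapped, and their log2 fold change was 0.27 (SE 0.18, 95% interval -0.12 to 0.66, edgeR adjusted p = 0.572).

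Genes that release or trim chemokines were a list of 8 sheddases, proteases and regulators, of which 7 were tested. Adam17 encodes a sheddase of both anchored ligands. It passed the test in no comparison, with log2 fold changes of 0.40 with shControl-CM and 0.17 with shBrca2-CM against control medium (edgeR adjusted p = 0.103 and 0.449). Adam10, the other sheddase, was at 22.6 and 23.1 CPM in control medium and at 17.8, 12.6 and 7.51 CPM with shControl-CM (log2 fold change -0.85, SE 0.34, edgeR adjusted p = 0.0804). That call was lost without shControl-CM replicates 2 and 3 (edgeR adjusted p = 0.186 and 0.169) and without either control library (0.293 and 0.298). It was also lost with either DESeq2 test (adjusted p = 0.167 and 0.177), a replicate block (0.166) and thinned libraries (0.419). Timp3, an inhibitor of these sheddases, was at 374.8 and 345.7 CPM in control medium, at 72.9, 65.8 and 102 CPM with shControl-CM, and at 125, 127 and 122 CPM with shBrca2-CM. It fell with shControl-CM (log2 fold change -2.17, SE 0.19, edgeR adjusted p = 4.12e-05) and with shBrca2-CM (log2 fold change -1.53, SE 0.15, edgeR adjusted p = 4.29e-13). Mmp2, a protease that can cleave chemokines, rose with shControl-CM (log2 fold change 1.97) and with shBrca2-CM (1.69) against control medium. Mmp9, the other gelatinase of the list, was at 18.0 and 15.4 CPM in control medium, at 10.1, 6.78 and 11.6 CPM with shControl-CM and at 8.71, 4.96 and 0.887 CPM with shBrca2-CM. Mmp9 fell with shControl-CM (log2 fold change -0.79, SE 0.31, edgeR adjusted p = 0.0778) and with shBrca2-CM (-1.97, SE 0.42, edgeR adjusted p = 1.31e-04). The latter was -1.32 without shBrca2-CM replicate 3, the lowest dome, and -2.67 without shBrca2-CM replicate 1. Between the conditioned media Mmp9 was not called (log2 fold change -1.11, SE 0.59, edgeR adjusted p = 0.467). In all, 2 of the 7 genes were higher and 3 lower with shControl-CM, 2 higher and 2 lower with shBrca2-CM, and 1 higher (Timp3) and 0 lower between the conditioned media. Over all genes the shares were 18.2% and 18.9% with shControl-CM, 18.6% and 19.2% with shBrca2-CM, and 1.58% and 1.55% between the media, and the list medians were 0.40, 0.06 and -0.27. Timp3 between the media (log2 fold change 0.65, edgeR adjusted p = 0.0952) was not called without any 1 shBrca2-CM library or without shControl-CM replicate 2 (edgeR adjusted p from 0.255 to 0.399). It was also not called with either DESeq2 test (adjusted p = 0.168 and 0.175), DESeq2's size factors in edgeR (0.118) or a replicate block (0.115).

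The neighbouring monocyte chemokines Ccl2 and Ccl7 also moved apart. Ccl2 was at 261.1 and 255.6 CPM in control medium, at 186.4, 180.1 and 179.6 CPM with shControl-CM and at 166.9, 244.3 and 157 CPM with shBrca2-CM. Control medium was above every conditioned medium dome, and shBrca2-CM replicate 2 lay apart from its 2 companions and near control medium. With shControl-CM Ccl2 was 1.42-fold lower than with control medium (log2 fold change -0.51, SE 0.15, edgeR adjusted p = 0.0238), barely past the fold threshold. That call was lost when shControl-CM replicate 2 or 3 was left out (log2 fold change -0.50 and -0.49, short of the fold threshold) and when control replicate 1 or 2 was left out (edgeR adjusted p = 0.148 and 0.115). With shBrca2-CM the log2 fold change was -0.45 (SE 0.15, edgeR adjusted p = 0.0152), under the fold threshold, and without shBrca2-CM replicate 2 it was -0.67 and called (edgeR adjusted p = 8.42e-04). Between the conditioned media it was 0.08 (SE 0.17, 95% interval -0.30 to 0.45, edgeR adjusted p = 0.896).

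Ccl7 was at 24.1 and 29.6 CPM in control medium, at 90.7, 70.7 and 107 CPM with shControl-CM and at 62.4, 70.7 and 80.7 CPM with shBrca2-CM. All conditioned medium domes were above both control domes. Ccl7 rose 3.34-fold with shControl-CM (log2 fold change 1.74, SE 0.22, edgeR adjusted p = 4.03e-04) and 2.7-fold with shBrca2-CM (log2 fold change 1.43, SE 0.20, edgeR adjusted p = 1.27e-08). The conditioned media overlapped, with a log2 fold change of -0.30 (SE 0.19, 95% interval -0.70 to 0.11, edgeR adjusted p = 0.547).

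Of 26 other chemokine ligands listed, 7 had a row: Ccl5, Ccl8, Ccl9, Ccl17, Ccl25, Ccl27a and Cxcl11. Of the 4 tested between the conditioned media 0 were DE, where 1.58% of all genes were higher and 1.55% lower. Against control medium 2 of 7 were DE and higher and 0 lower with shControl-CM, and 3 of 7 higher and 0 lower with shBrca2-CM, where 18.2% and 18.6% of all genes were higher and 18.9% and 19.2% lower. Ccl17 and Ccl9 had 0 counts in every shControl-CM library (log2 fold changes -5.64 and -5.53, edgeR adjusted p = 0.0269 and 0.0395). Cxcl11 had 0 counts in every shBrca2-CM library (log2 fold change -4.85, edgeR adjusted p = 0.0838). Their mean normalized counts did not pass the threshold, so they were not called. Ccl8, a CC chemokine related to Ccl2 and Ccl7, was at 1.58 and 0.857 CPM in control medium, at 16.5, 19.4 and 18.4 CPM with shControl-CM and at 7.26, 17.4 and 10.7 CPM with shBrca2-CM. It rose with shControl-CM (log2 fold change 3.81, SE 0.41, edgeR adjusted p = 1.39e-04) and with shBrca2-CM (log2 fold change 3.20, SE 0.51, edgeR adjusted p = 6.50e-07). The control libraries held 9 and 4 counts of Ccl8, and in thinned libraries the log2 fold changes were 6.38 and 6.14. Ccl5, a T-cell and monocyte attractant, was at 324.8 and 365 CPM in control medium, at 909.2, 797 and 888 CPM with shControl-CM and at 937.4, 755.3 and 705.4 CPM with shBrca2-CM, so it rose with both (log2 fold changes 1.32 and 1.22). The conditioned media overlapped in both genes.

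Regulators of chemokine expression were described by 2 further lists. Of 14 NF-kB subunits and inhibitors, 7 were higher and 0 lower with shControl-CM and 6 higher and 0 lower with shBrca2-CM, both against control medium. Of all genes tested, 18.2% and 18.6% were DE and higher and 18.9% and 19.2% DE and lower in these comparisons. The list medians were 0.61 with shControl-CM and 0.52 with shBrca2-CM, against -0.10 and -0.05 for all genes. Bcl3, a nuclear co-regulator of NF-kB, was at 21.0 and 21.2 CPM in control medium, at 129, 161 and 117 CPM with shControl-CM and at 97.2, 93.0 and 121 CPM with shBrca2-CM. Its log2 fold changes against control medium were 2.67 with shControl-CM (SE 0.21, edgeR adjusted p = 2.03e-05) and 2.31 with shBrca2-CM (SE 0.19, edgeR adjusted p = 5.58e-16). Rela, an NF-kB subunit, rose with log2 fold changes of 1.47 and 1.27. Of 13 genes tested with shBrca2-CM against shControl-CM, 1 was DE and lower, where 1.55% of all genes were, and 0 were higher (1.58%). It was Relb (log2 fold change -0.72, SE 0.18, edgeR adjusted p = 0.073). This call was lost without any 1 shBrca2-CM library or without shControl-CM replicate 2 (edgeR adjusted p from 0.212 to 0.348), and with total-count scaling (0.109). Nfkbiz, which encodes an NF-kB co-activator, was at 16.8 and 11.3 CPM in control medium, at 86.9, 25.2 and 30.7 CPM with shControl-CM and at 49.3, 44.7 and 51.5 CPM with shBrca2-CM. The conditioned media overlapped in Nfkbiz. Between them Nfkbiz did not pass the test (log2 fold change 0.01, SE 0.39, edgeR adjusted p = 0.996). Against control medium it rose with shControl-CM (log2 fold change 1.78, edgeR adjusted p = 0.0186) and with shBrca2-CM (1.78, edgeR adjusted p = 4.2e-09). The rise with shControl-CM was 0.99 without shControl-CM replicate 1, and 2.10 and 1.53 without control replicates 1 and 2.

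Of 10 genes of the decay of chemokine mRNA, 4 were higher and 2 lower with shControl-CM, 2 higher and 2 lower with shBrca2-CM, and 0 higher and 1 lower between the conditioned media. With 18.2% to 19.2% of all genes DE in each direction against control medium, 2 of 10 genes is close to the share over all genes. Between the media 1.58% of all genes were higher and 1.55% lower. The list medians were 0.19, 0.13 and 0.10 in the same order. The gene that differed between the media was Zc3h12a, which encodes the endonuclease Regnase-1 that cleaves inflammatory mRNAs. It was at 19.1 and 17.6 CPM in control medium, at 83.1, 97.8 and 110 CPM with shControl-CM and at 18.9, 13.6 and 20.4 CPM with shBrca2-CM. Its shBrca2-CM domes overlapped control medium, and its shControl-CM domes were above all others. Zc3h12a was lower with shBrca2-CM than with shControl-CM (log2 fold change -2.41, SE 0.22, edgeR adjusted p = 1.19e-04), and the call held in all 16 alternatives. Against control medium it rose with shControl-CM (log2 fold change 2.39, edgeR adjusted p = 3.69e-05), and with shBrca2-CM it was at -0.03 on the log2 scale (edgeR adjusted p = 0.938). Rc3h2, which encodes the mRNA-binding protein Roquin-2, rose with both conditioned media (log2 fold changes 3.66 and 3.26, the latter 3.88 in thinned libraries). Zfp36l2, with at most 2 counts per shControl-CM library, and Zfp36l1 fell with shControl-CM (-2.91 and -1.51). Zfp36l1 and Zfp36 fell with shBrca2-CM (-0.68 and -0.59). The calls of Zfp36l1 with shControl-CM and of Zfp36 with shBrca2-CM were lost with either DESeq2 test (adjusted p from 0.217 to 0.301). Without shControl-CM replicate 1 Zfp36l1 was at -2.83 with shControl-CM.

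Chemokines are held at the cell surface by heparan sulfate proteoglycans, and 7 of 7 listed were tested. With shBrca2-CM 1 of them was higher than with shControl-CM and 3 were lower, against 1.58% and 1.55% of all genes, and the list median was -0.23. Sdc1 (syndecan-1) was at 181.8 and 206.1 CPM in control medium, at 794.4, 911.2 and 959.7 CPM with shControl-CM and at 509.3, 470.1 and 556.3 CPM with shBrca2-CM, with no overlap between any of the groups. It was lower with shBrca2-CM than with shControl-CM (log2 fold change -0.77, SE 0.12, edgeR adjusted p = 0.00538) in all 16 alternatives. Against control medium Sdc1 rose with shControl-CM (log2 fold change 2.19) and with shBrca2-CM (1.41). The glypicans Gpc4 and Gpc1 were also lower with shBrca2-CM than with shControl-CM (log2 fold changes -0.91 and -0.65, edgeR adjusted p = 0.0175 and 0.0794) and Sdc2 was higher (0.73, edgeR adjusted p = 0.0367). Gpc4 lost its call without shBrca2-CM replicate 1 or 2 (edgeR adjusted p = 0.108 and 0.149). Gpc1 and Sdc2 lost theirs without any 1 shBrca2-CM library or without shControl-CM replicate 2 (edgeR adjusted p from 0.136 to 0.383). Sdc2 was also not called with either DESeq2 test (adjusted p = 0.102 and 0.104), nor Gpc1 with total-count scaling (0.126). Against control medium 4 of the 7 genes were higher and 2 lower with each conditioned medium, where 18.2% to 19.2% of all genes were DE in each direction, and the list medians were 0.87 with shControl-CM and 0.70 with shBrca2-CM.

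**Figure D5:**
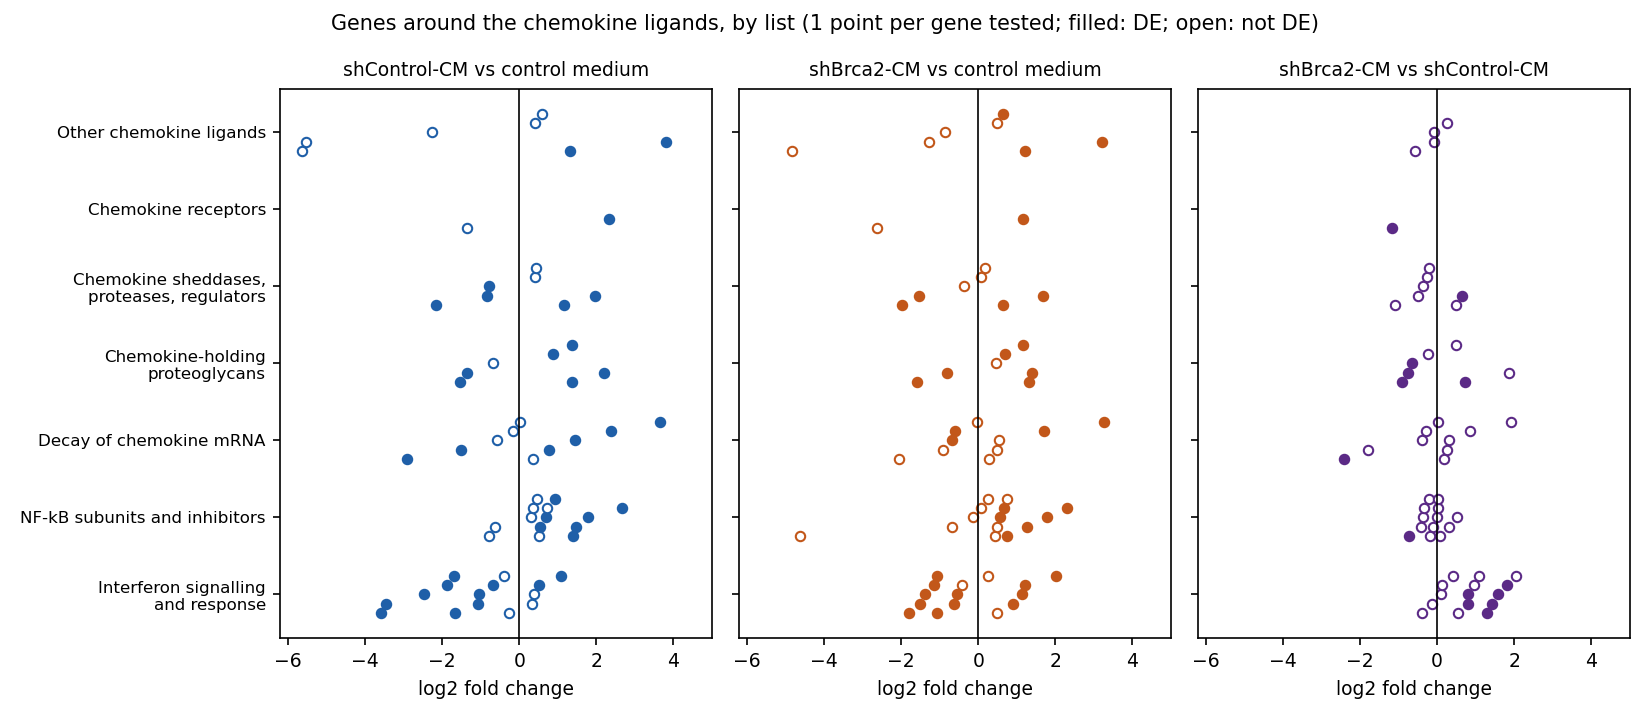
Log2 fold changes (horizontal axis) of the genes tested in 7 lists around the chemokine ligands, 1 panel per comparison and 1 point per gene, filled where the gene was DE. Between shBrca2-CM and shControl-CM the interferon list shows 6 filled points above 0 and none below, and the proteoglycans 3 filled points below 0 and 1 above.

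Across the 8 libraries the levels of the members sorted into a few patterns. The correlations that follow are Pearson's r of log2 CPM over 8 libraries that fall into 3 groups and differ in depth, and they describe these libraries only. Cxcl1, Cxcl2 and Cxcl3 ran together (r from 0.935 to 0.974), while Cxcl5 followed Cxcl1 less closely (0.645). No shBrca2-CM library held more than 3 counts of Cxcl2 or 1 count of Cxcl3. Their log2 CPM there depended in part on depth and on the prior count of 2 added before the logarithm. Cxcl16 ran with Ccl7 (0.950) and against Cxcl12 (-0.971) and Cx3cl1 (-0.969). Among 7915 genes with a mean of at least 10 CPM, those most like Cxcl12 were Fhl1 (0.992), the receptor gene Notch3 (0.986) and Mest (0.986). Cx3cl1 ran most closely with Basp1 (0.999), the elastin gene Eln (0.995) and Socs2 (0.995). The genes most like Cxcl10 were Ttll5 (0.988), Ptk2 (0.981) and the interferon-induced Isg20 (0.981). Cxcl1 was most like Cc2d2a (0.978), Kifc1 (0.977) and Sh3pxd2b (0.975), and Cxcl5 most like Prdm2 (0.986), Psma3 (0.971) and Khdc4 (0.971). Cxcl16 was nearest to Gngt2 (0.998), Ppard (0.995) and Rnf40 (0.994). Ccl2 was nearest to Rad17 (0.983), Fam172a (0.980) and Mfsd1 (0.964). Ccl7 ran closely with Fbf1 (0.988) and Pi4k2b (0.986).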

How the data were processed

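RNA of immortalized mouse PSCs was measured in 8 libraries of 3 groups, which were taken from the recorded treatment of each sample. The values deposited by the authors are raw read counts of 12160 genes in MARS-seq libraries, which sequence the 3′ ends of mRNA; they were not normalized and replicates were not pooled. The submitters' processing notes name bcl2fastq, cutadapt, STAR 2.4.2a, HTSeq, DESeq2 and the build mm10. Counts are of 3′ tags, so levels were compared between libraries and not between genes, and the treatment of molecular identifiers is not given in the sources used here. A further 1 column of the counts fitted no sample given here and was left out.

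Each pair of groups was fitted alone in R 4.3.3 with edgeR 4.0.16 (TMM normalization, genes with 10 or more counts in the libraries compared, quasi-likelihood test, Benjamini-Hochberg adjustment over all genes tested), with the study's thresholds for DE genes. No replicate block was used. Standard errors were derived from the F statistic, and the test was checked on simulated counts. Ratios of genes with few counts carry exact conditional counting intervals. Promoter sequences and gene positions are RefSeq's for GRCm38.p6. Counts of replicates differed by more than sampling noise (chi-square per degree of freedom 1.65 to 8.35), so each library was counted once.

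The members, gene lists, tests and alternatives were chosen with earlier results of these data known. Genes named from a list were the called genes with the largest log2 fold change, up to 4 per list and comparison, whose libraries did not overlap between groups. Genes of like pattern were the 3 with the highest r for each member with a mean of at least 10 CPM, of which 1 is not reported here. Adam17, Ccrl2, Ccl9, Ccl17, Cxcl11, the change of Mmp9 with shControl-CM, and the levels of Nfkbiz by dome were picked once their values were known. The alternatives tried were the likelihood ratio and Wald tests of DESeq2 1.42.0, scaling by total counts or by the size factors of DESeq2 instead of TMM, no filter or filterByExpr, all 3 groups in one fit, an adjusted p under 0.05, a replicate block, libraries thinned to the smallest total, and each library left out in turn.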

Additional observations from a re-analysis of the deposited data

How the results depend on the processing

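No shBrca2-CM library was above 3 counts for Cxcl2 or Cxcl3, which limits the precision of both. Between the conditioned media 4 members were DE, and 2 were (Cxcl1 and Cxcl12) with DESeq2's likelihood ratio test, its Wald test, filterByExpr or an adjusted p under 0.05. DESeq2 gave no adjusted p for Cxcl3 there, and filterByExpr did not keep Cxcl2 and Cxcl3. Over the fits that left out 1 library, 1 to 3 members were DE, and it was 1, Cxcl12, without any 1 shBrca2-CM library. The count of all DE genes was 345, 206 at an adjusted p under 0.05, and 128 to 976 with 1 library left out (976 without shControl-CM replicate 1). With total counts in place of TMM, 250 genes were higher and 120 lower, against 174 and 171, and the median of all genes was 0.14 against 0.03 (log2); with shControl-CM against control medium it was -0.21 against -0.10. No scaling turned the direction of a member. With shControl-CM against control medium 8 to 10 members were DE with 1 library left out. The count of 4488 genes became 2906 in thinned libraries and 1901 to 5157 with 1 library left out (1901 and 2269 without control replicates 1 and 2). With shBrca2-CM against control medium 4555 genes were DE, 3319 in thinned libraries, and 3903 to 4510 genes and 7 to 8 members with 1 library left out.

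Of the members' fold changes 2 turned direction, both between the conditioned media and neither DE: Ccl2 became -0.15 without shBrca2-CM replicate 2 (range with 1 library left out -0.15 to 0.21) and Cxcl5 -0.48 without shControl-CM replicate 3 (-0.48 to 0.61). Cxcl12, Cxcl10, Cxcl16, Cx3cl1 and Ccl7 kept their direction and their side of the threshold in all 3 comparisons and every alternative run. The causes of lost calls were not tested. Same-numbered domes did not deviate together (correlations -0.0228, -0.00565 and 0.0934 between the conditioned media), so the numbers were not taken as pairs. With a replicate block 311, 4512 and 3850 genes and 4, 9 and 7 members were DE in the 3 comparisons, and the call of Ccl2 with shControl-CM against control medium was lost (log2 fold change -0.49).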
